A study of Danio rerio with 11 samples.

Results

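The 6 aldh3a1 knockout (aldh3a1_KO) libraries in a zebrafish series of 11 libraries were sorted into classes chosen by a measured value, the share of their counts that fell in the 13 protein genes of the mitochondrial genome. Libraries with over 15% formed a high-share class of 3 (knockout replicates 1, 5 and 6), and those with under 15% formed a lower-share class of 3 (replicates 2, 3 and 4). The other 5 libraries were wild type (WT) and serve here only to place the levels of the classes. The classes come from a measured value and not from a label, so the comparisons below describe how libraries of 1 genotype differed among themselves. All libraries came from embryos at 48 h after fertilization of the TG(fli1:EGFP) line, in which the fli1 promoter drives a green reporter in blood vessels, and WT and knockout embryos both carried it. The knockout is homozygous, written aldh3a1-/-, for the gene of an aldehyde-oxidising enzyme, and the mutation and the number of mutant lines are not given in the sources used here. The labels allow for PTU, an inhibitor of melanin synthesis, in the embryo medium of some embryos without naming which. Since the origin of the replicates (clutch, pool or single extract) is not stated either, p-values refer only to the spread among these libraries, which may be technical.

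The vertebrate mitochondrial genome encodes core subunits of respiratory complexes I, III and IV and of the ATP synthase (complex V), while all other subunits, the mitochondrial ribosomal proteins and the factors that copy and transcribe mitochondrial DNA are made from nuclear genes and imported. Mitochondrial protein genes are transcribed as long precursor RNAs from both strands, and the gene of the complex I subunit ND6 is the only protein gene read from the light strand. Muscle and heart are known for many mitochondria, and the mitochondrial share of reads is also used as a quality measure of RNA libraries.

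Mitochondrially encoded genes took 25.9% of the estimated counts in knockout 1, 19.8% in knockout 5 and 20.9% in knockout 6. They took 7.44%, 12.1% and 5.01% in knockout 2, 3 and 4. The values nearest the 15% line were thus knockout 3 at 12.1% and knockout 5 at 19.8%, and these shares chose the classes and are given without a test. The class means were 22.2% ± 3.29 (SD, n = 3) and 8.18% ± 3.59 (SD, n = 3). The 5 WT libraries lay between 4.63% and 5.62%, a range that holds knockout 4 but neither knockout 2 nor 3.

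**Figure D1:**
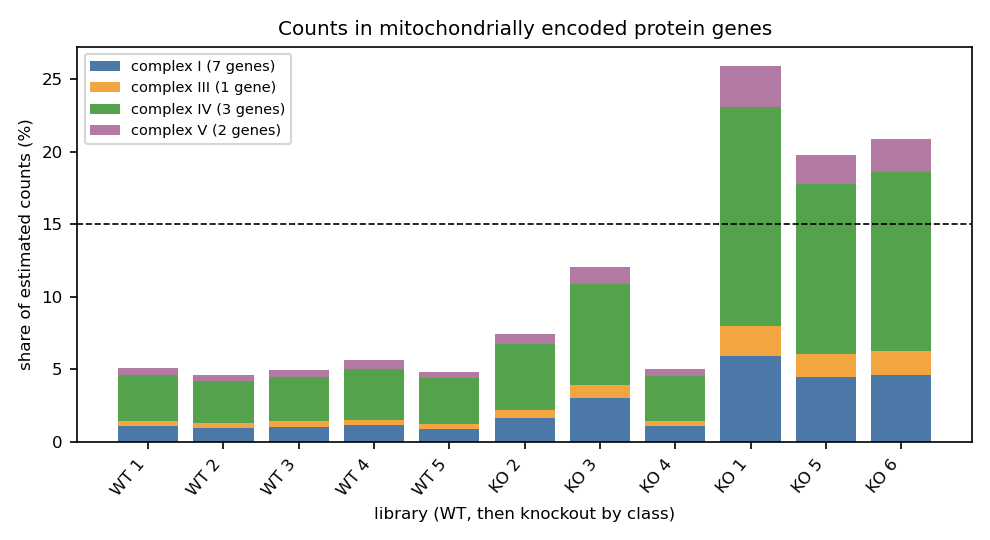
Share of estimated counts (%) in mitochondrially encoded protein genes for each library, stacked by respiratory complex, with WT first, then the lower-share and the high-share knockout libraries; the dashed line is the 15% threshold. The high-share libraries reach 19.8% to 25.9% and the lower-share libraries 5.01% to 12.1%, with complex IV the tallest segment in each bar.

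All 13 genes had the higher mean share in the high-share class. Cytochrome c oxidase subunit mt-co1 was the most counted in each library, with 29.8% to 30.7% of mitochondrial counts in the high-share and 31.1% to 32.9% in the lower-share libraries. Complex IV genes together took 15.12%, 11.68% and 12.31% of all counts in knockout 1, 5 and 6, and 4.52%, 6.995% and 3.08% in knockout 2, 3 and 4. The 7 complex I genes took 5.90%, 4.46% and 4.59% of all counts against 1.65%, 2.99% and 1.09%. The ratio of the class means was between 2.57 (mt-nd4) and 3.48 (mt-atp8, a short ATP synthase subunit) for 12 of the 13 genes. The exception was mt-nd6, the light-strand gene, with a ratio of 1.88. Its part of the mitochondrial counts was 1.84%, 2.51% and 2.199% in the high-share libraries, 3.05%, 2.77% and 3.99% in the lower-share libraries and 1.44% to 2.63% in WT. So mt-nd6 was the smaller part of mitochondrial RNA in each high-share library, within the WT range, and the larger part in each lower-share library, above that range. Ribosomal and transfer RNAs of the mitochondrion are not listed in the files.

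Nuclear counts, those left after removing the mitochondrial genes, totalled 9.66, 7.40 and 10.18 M counts in knockout 1, 5 and 6, 15.9, 10.1 and 13.4 M in knockout 2, 3 and 4, and 17.1 to 19.0 M in WT. The class difference of -4.05 M had an exact two-sided permutation p of 0.2, where 3 against 3 cannot go below 0.1. Nuclear totals leave out the counts that chose the classes, so this difference follows in part from the rule. With mitochondrial counts included, the class means of the totals differed by -2.54 M. Counts in identifiers without a symbol made up 4.22% to 4.79% in the high-share, 2.17% to 3.95% in the lower-share and 1.56% to 2.18% in WT libraries (exact p = 0.1, the smallest possible). In all, 4 measures were tested. The others were the share of nuclear genes with no count (class difference 1.64 points, exact permutation p = 0.2) and that of the 10 most abundant nuclear genes (-0.04 points, p = 0.9). Levels of nuclear genes are given as CPM, counts scaled to the same nuclear total in all 11 libraries (with TMM factors), and differences as log2 fold changes ± standard error (SE), high-share against lower-share, from a fit to the 6 knockout libraries. The aldh3a1 transcript was measured at 5.30, 4.60 and 2.18 CPM in the high-share libraries (knockout 1, 5 and 6, in that order) and 3.12, 5.77 and 4.36 CPM in the lower-share libraries (knockout 2, 3 and 4), with 4.91 to 8.82 CPM in WT. Its ranges overlapped in all 3 groups, so its level neither separates the classes nor checks the knockout label. On the first principal component of the nuclear genes over the 6 knockout libraries (52.5% of the variance), knockout 2, 4 and 3 lay at -0.61, -0.42 and -0.05 and knockout 6, 1 and 5 at 0.17, 0.40 and 0.51. The classes did not overlap there, and knockout 3 and 6 were neighbours at the boundary.

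Of 20857 nuclear genes tested, 900 (4.32%) differed between the classes at an edgeR adjusted p under 0.05, the threshold for every gene said to be called here. The high-share libraries were higher in 539 of them (2.58%) and lower in 361 (1.73%). The median log2 fold change was 0.03 over all genes tested. In 6525 genes (31.3%) the ranges of the classes did not overlap. The number of calls depended on single libraries: it was 1013 without knockout 1, 41 without knockout 2, 2250 without knockout 3, 59 without knockout 4, 66 without knockout 5 and 21 without knockout 6. It was 0 when log2 of the nuclear total entered as a covariate in edgeR, with 1250 genes at an unadjusted p under 0.05, and 89 with the same covariate in DESeq2. The nuclear total is partly tied to the classes by the rule, so fits with this covariate cannot separate depth from class. The high-share libraries were the higher in 59.9% of the 900 calls, in 15.5% of 161 calls on log2(TPM + 1), in 11.4% of 79 calls on log2(TPM + 0.1) and in 74.3% of 1772 calls after a trend on gene length was removed.

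**Figure D2:**
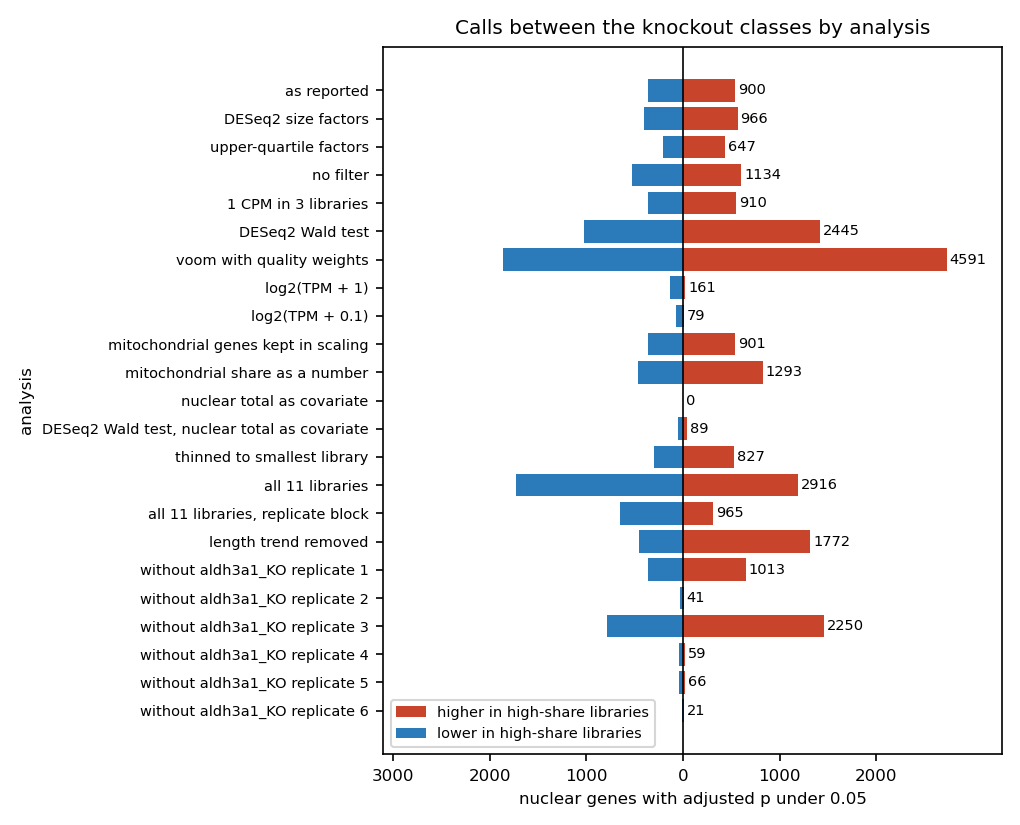
Number of nuclear genes with an adjusted p under 0.05 between the knockout classes in the reported analysis and in each alternative; bars to the right count genes higher in the high-share libraries, bars to the left genes lower there, and the figure at each bar is the sum. Leaving out knockout 2, 4, 5 or 6 leaves 21 to 66 calls, and leaving out knockout 3 gives 2250.

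12 genes were called in the reported comparison and again, in the same direction, without each of the 6 libraries in turn, and they were picked out after their values were seen. The 7 of them that were lower in the high-share libraries were hnrnpua, pcdh1a3, bag6l and the lens genes crygm2d17, crygm2d19, crygn2 and mipb. The 5 that were higher are uncharacterised loci or identifiers without a symbol. Among them, LOC100003868 and LOC103909690 had identical values (log2 fold change 2.75, edgeR adjusted p = 0.0118), so they may not be separate results.

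The RNA-binding scaffold gene hnrnpua, a heterogeneous nuclear ribonucleoprotein, was at 0, 0.406 and 0 CPM in the high-share libraries and 13.4, 17.9 and 24.1 CPM in the lower-share libraries, with 10.21 to 24.1 CPM in WT. It was nearly absent from the high-share libraries, with 3 counts in all, and close to the WT range in the lower-share libraries, with 729 counts. The ratio, lower-share over high-share, was 168 with a 95% interval of 57.1 to 815 that covers counting error only (edgeR adjusted p = 0.00287). The clustered protocadherin pcdh1a3, a neuronal adhesion protein, was at 0, 0 and 0 CPM in the high-share libraries and 8.04, 14.9 and 19.0 CPM in the lower-share libraries, with 28.5 to 41.1 CPM in WT. With 0 counts in the high-share class and 546 in the lower-share class, it was at least 126-fold lower in the former, against a floor of 3 counts over the class (adjusted p = 0.00287). No library of one class reached the other for either gene. Protocadherin genes of a cluster share sequence, so the split of counts among them is uncertain. Of 28 pcdh1 genes tested, 6 were called lower and 1 higher, beside 1.73% and 2.58% of all genes, with a median log2 fold change of -0.78. Among 20 pcdh2 genes 1 was called lower, and the median was 0.28. These 2 families were looked up after pcdh1a3 was seen.

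The genes with the largest log2 fold changes towards lower levels in the high-share libraries, named by the size rule, included the following. The retinal ganglion cell transcription factor pou4f2 was at 0.674, 2.98 and 0.726 CPM in the high-share libraries and 19.4, 8.15 and 22.5 CPM in the lower-share libraries, with 16.4 to 43.5 CPM in WT. Its log2 fold change was -3.57 ± 0.59 (SE; adjusted p = 0.0206), and, of the lower-share libraries, knockout 3 alone lay under the WT range. The midbrain and retina homeobox gene dmbx1a was at 1.16, 1.08 and 1.76 CPM in the high-share libraries and 16.4, 7.51 and 10.8 CPM in the lower-share libraries, with 12.2 to 18.7 CPM in WT, a log2 fold change of -3.09 ± 0.43 (adjusted p = 0.0108). The chloride channel gene ttyh1, expressed in neural stem cells and glia, was at 0.674, 1.76 and 1.56 CPM in the high-share libraries and 10.7, 6.78 and 10.5 CPM in the lower-share libraries, with 15.6 to 43.4 CPM in WT (log2 fold change -2.82 ± 0.44). Each of these genes was lower in all 3 high-share libraries than in any other library, WT included. The neural proteoglycan gene cspg5b and the axon growth protein gene dpysl4 had log2 fold changes of -2.80 ± 0.54 and -2.74 ± 0.37, also called. Protocadherins pcdh1g31 and pcdh1g26 were called lower too, at -3.78 ± 0.68 and -2.83 ± 0.38, and pcdh1g31 ranged in WT from 0 to 16.8 CPM.

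Of the 47 lists, the lens list, for the transparent tissue of the eye packed with crystallins, had the lowest median. Of 21 lens markers that passed the filter on low counts, of 30 listed, 12 were called lower and 0 higher in the high-share libraries, beside 1.73% and 2.58% of all genes. Their median log2 fold change was -1.39, against 0.03 over all genes, and 20 of the 21 were negative. The lens water channel gene mipb was at 4.05, 2.84 and 5.91 CPM in the high-share libraries and 23.7, 24.4 and 23.7 CPM in the lower-share libraries, with 110.4 to 177 CPM in WT. The 3 groups were apart from one another, with a log2 fold change between the knockout classes of -2.46 ± 0.32 (adjusted p = 0.0106). The crystallin crygn2 had 19.4, 17.7 and 8.20 CPM in the high-share libraries and 74.6, 102 and 71.6 CPM in the lower-share libraries, with 319.5 to 768 CPM in WT, a log2 fold change of -2.44 ± 0.33, and crygm2d12 had one of -2.27 ± 0.30. The lens fibre membrane gene lim2.3, named by its size of change, had one of -2.68 ± 0.48. The gamma-crystallin copies crygm2d19 and crygm2d20 were called at -2.98 ± 0.38 and -2.85 ± 0.38, and 17 of 19 crygm2d genes tested were called lower, though they are near-identical, share reads and were counted as a family after their values were seen. Against WT the lens markers had median log2 fold changes of -4.48 in the high-share and -2.56 in the lower-share libraries, 2 comparisons that share the WT libraries. The crystallin crybb1l1 went with neither class, at 10.4, 4.46 and 5.60 CPM in the high-share libraries and 5.72, 13.6 and 7.56 CPM in the lower-share libraries, with 107 to 616 CPM in WT (log2 fold change -0.36 ± 0.42, adjusted p = 0.595). The number of lens markers called lower was between 2 and 13 when single libraries were left out, and the median was -1.72 with the nuclear total as covariate. Whether whole embryos held fewer lens cells or less RNA per cell cannot be told apart in these bulk samples, and the same holds for the other tissues.

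Melanophores, the black pigment cells, had 3 of 19 markers called lower and 0 higher, beside 1.73% and 2.58% of all genes. Their median was -0.31, with 12 negative and 7 positive. Of the 19, 8 were lower and 3 higher without overlap, beside 16.9% and 14.4% of all genes. The channel gene trpm1b was at 9.92, 7.17 and 4.98 CPM in the high-share libraries and 25.7, 30.9 and 30.1 CPM in the lower-share libraries, with 26.5 to 45.2 CPM in WT, a log2 fold change of -1.95 ± 0.31 (adjusted p = 0.0164). The pigment enzymes tyrp1b and dct had log2 fold changes of -1.16 ± 0.26 and -1.01 ± 0.25, while the pigment matrix gene pmela had -0.60 ± 0.24 and was not called. These 4 genes are among the 8 that were lower without overlap. PTU blocks melanin synthesis, and its use could not be matched to libraries, so its part was not tested. Of 26 endothelial markers, genes of vessels that the reporter labels, 2 were called lower and 0 higher, beside 1.73% and 2.58% of all genes. They were the tight junction gene cldn5b (-1.68 ± 0.27) and the transcription factor gene sox18 (-1.08 ± 0.28). The list leaned the other way, with 18 of the 26 positive, among them plvapa (1.16 ± 0.33, not called), and 8 negative. Without overlap 6 were higher and 3 lower, beside 14.4% and 16.9% of all genes. The median of that list was 0.23 between the classes, positive although its medians against WT were -1.14 in the high-share and -0.88 in the lower-share libraries. For neural progenitors and glia 1 of 20 markers was called, beside 4.32% of all genes. It was the glutamate transporter slc1a3b (-1.31 ± 0.32). Of the 20, 18 were negative, with a median of -0.71 (-0.08 with the nuclear total as covariate). The oligodendrocyte factor olig2 (-1.102 ± 0.30, adjusted p = 0.0548) and the glutamate transporter slc1a2b (-1.08 ± 0.30, adjusted p = 0.0577) were not called. Photoreceptor markers went both ways, with 6 of 12 positive, 6 negative and a median of 0.04. The transcription factor nr2e3 was called lower (-1.74 ± 0.36), while the photoreceptor protein genes tulp1b (1.69 ± 0.44) and saga (0.85 ± 0.29) had positive values and were not called. The islet list also went both ways, with 9 of 17 positive and a median of 0.15, and had 0 called in edgeR, 5 at an unadjusted p under 0.05 and 2 in DESeq2. The transcription factor arxa was at -1.23 ± 0.33 (adjusted p = 0.0551) and the calcium-binding protein gene scgn at 0.87 ± 0.33 (adjusted p = 0.126).

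In the opposite direction, markers of the skin were called most often. Of 29 epidermal markers tested, of 30 listed, 13 were called higher in the high-share libraries and 0 lower, beside 2.58% and 1.73% of all genes. All 29 were positive with a median log2 fold change of 1.21. In 23 of the 29 the classes did not overlap, beside 14.4% of all genes that were higher without overlap. The epithelial adhesion gene epcam was at 28.9, 28.9 and 25.7 CPM in the high-share libraries and 8.17, 11.4 and 6.68 CPM in the lower-share libraries, with 37.4 to 90.2 CPM in WT. Its log2 fold change between the classes was 1.69 ± 0.28 (adjusted p = 0.0197), and both classes lay under all WT libraries. The secreted protein gene agr1 was at 26.1, 35.7 and 43.4 CPM in the high-share libraries and 12.3, 13.3 and 9.15 CPM in the lower-share libraries, with 52.9 to 92.0 CPM in WT (1.61 ± 0.28, adjusted p = 0.0206). For periplakin, the desmosome linker encoded by ppl, the log2 fold change was 1.85 ± 0.33, from 66.1, 91.9 and 141 CPM in the high-share libraries and 27.4, 37.4 and 18.9 CPM in the lower-share libraries, with 47.1 to 143 CPM in WT. Here the high-share libraries, not the lower-share ones, overlapped WT. The epidermal medians against WT were -1.27 in the high-share and -2.44 in the lower-share libraries. Between 0 and 13 epidermal markers were called higher when single libraries were left out, with list medians from 1.05 to 1.303.

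Liver and yolk syncytial layer, the embryo's lipoprotein-making tissues, also had positive medians. All 19 liver markers tested, of 27 listed, were positive, beside 51.6% of all genes. Of the 19, 4 were called higher, beside 2.58% of all genes, and the median was 1.39. The median log2 level of the list, relative to the WT mean, ranged from -1.48 to 1.04 among the WT libraries alone. Complement gene c3a.1 was at 16.6, 26.0 and 25.9 CPM in the high-share libraries and 2.99, 7.05 and 8.14 CPM in the lower-share libraries, with 1.23 to 13.7 CPM in WT (1.92 ± 0.38, adjusted p = 0.0239). The plasma protein genes itih2 and cp, for an inter-alpha-trypsin inhibitor chain and the copper protein ceruloplasmin, had log2 fold changes of 1.65 ± 0.34 and 1.83 ± 0.39. In the yolk syncytial layer list 3 of 19 markers were called higher, all of them apolipoproteins, beside the same 2.58% of all genes. The median of the list was 1.37, and its level relative to the WT mean ranged from -2.05 to 1.13 among the WT libraries alone. Apolipoprotein apoa4b.2 had the largest log2 fold change among the genes named by the size rule as higher, 2.85 ± 0.55 (adjusted p = 0.0264). It was at 15.7, 15.6 and 44.3 CPM in the high-share libraries and 1.53, 3.48 and 5.59 CPM in the lower-share libraries, with 0.321 to 16.3 CPM in WT, so the WT spread covered the whole lower-share class and reached the lowest high-share libraries. The others were apoa4b.1 (1.88 ± 0.38) and apoa1b (1.398 ± 0.32).

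Skeletal muscle, a tissue rich in mitochondria, had 39 of 40 tested markers positive but 0 called in edgeR (11 at an unadjusted p under 0.05, and 8 called by DESeq2), with a median of 1.11. The calcium buffer gene pvalb1 was at 3565, 1636 and 2848 CPM in the high-share libraries and 1114, 1547 and 422 CPM in the lower-share libraries, with 3619 to 5199 CPM in WT (1.41 ± 0.45, adjusted p = 0.0897). Its classes were apart by a narrow gap between knockout 5 and knockout 3, and it was the 1 marker of the 40 whose classes did not overlap, beside 14.4% of all genes that were higher without overlap. Against WT the muscle medians were -0.88 in the high-share and -2.15 in the lower-share class, so the lower-share class was the farther by its median. Single libraries did not separate by class. The median log2 level of the list, relative to the WT mean, was -0.34, -1.90 and -0.82 in knockout 1, 5 and 6. In knockout 2, 3 and 4 it was -2.23, -1.24 and -3.11, and it ranged from -1.06 to 0.76 among the WT libraries alone. Heart had 0 of 12 markers called in edgeR, 5 at an unadjusted p under 0.05 and 2 in DESeq2. The median was 0.98 (0.21 with the nuclear total as covariate). The cardiac myosin light chain gene myl7 was at 2.22, 4.19 and 3.63 CPM in the high-share libraries and 0.665, 1.28 and 0.799 CPM in the lower-share libraries, with 7.75 to 26.6 CPM in WT (1.88 ± 0.51, adjusted p = 0.0548). The cardiac transcription factor nkx2.5, not called either (1.48 ± 0.43), was at 117, 218 and 85.2 CPM in the high-share libraries and 33.96, 84.3 and 34 CPM in the lower-share libraries, with 0.331 to 5.63 CPM in WT, so it was above WT in all 6 knockout libraries where myl7 was under it. Cartilage, bone and notochord had 0 of 23 called in edgeR, 9 at an unadjusted p under 0.05 and 3 in DESeq2 and a median of 0.88, with the cartilage matrix genes col11a1a and matn3a at 1.23 ± 0.34 and 1.34 ± 0.37. Fibroblast and connective tissue markers had 0 of 21 called in edgeR, 6 at an unadjusted p under 0.05 and 3 in DESeq2 and a median of 0.38, with col6a2, a collagen VI chain, at 1.73 ± 0.44 (adjusted p = 0.0511).

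**Figure D3:**
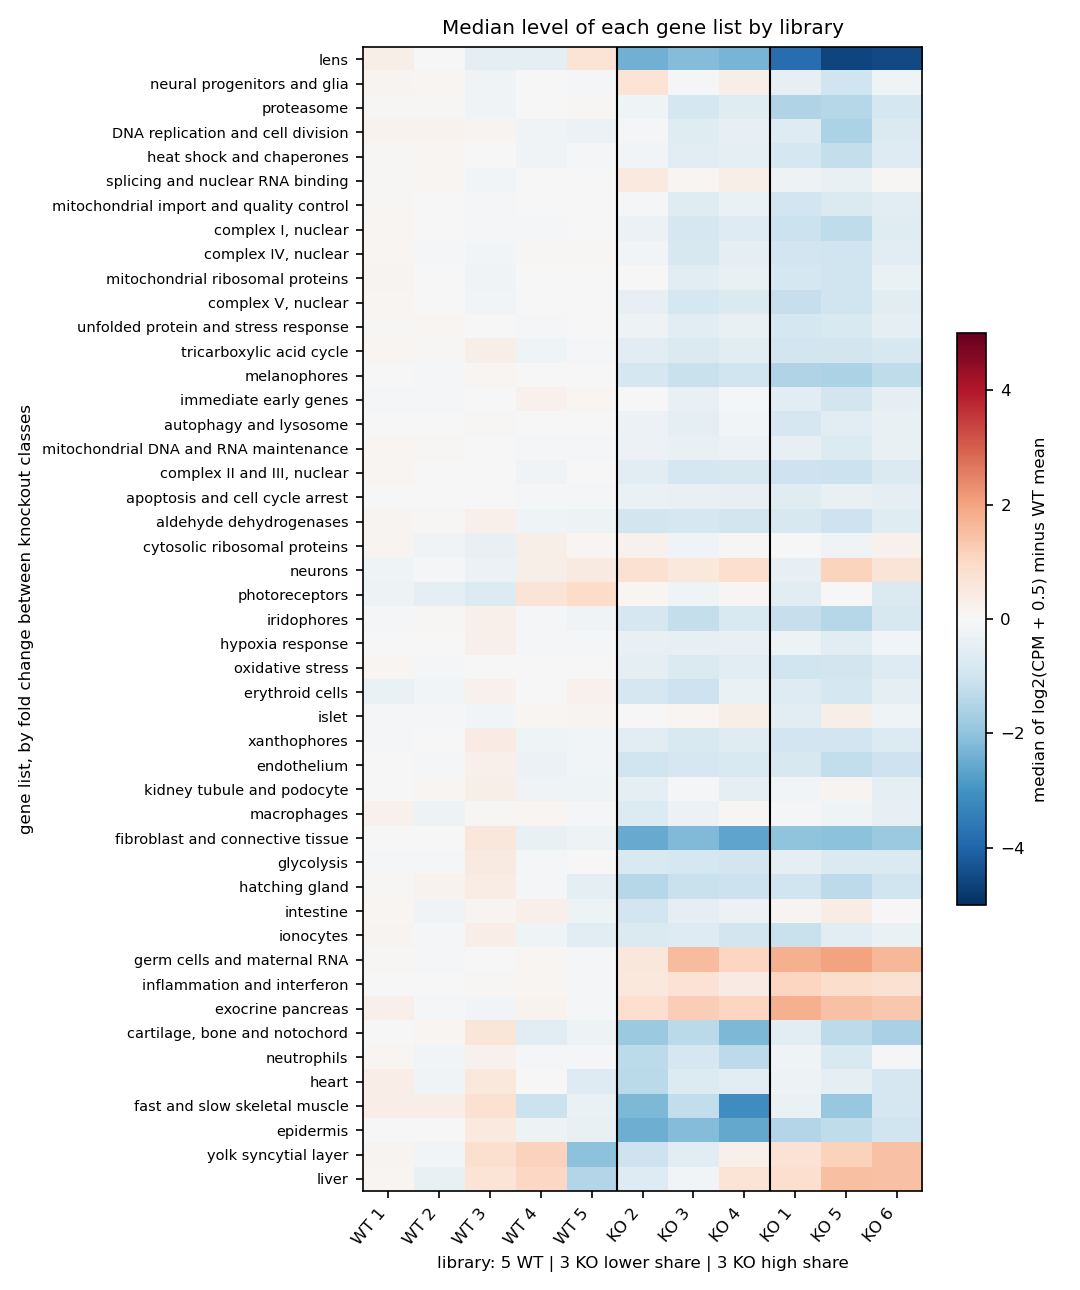
Median over the members of each gene list of log2(CPM + 0.5) minus the WT mean, for each library (columns, WT then lower-share then high-share knockout libraries) and each list (rows, ordered by the median fold change between the knockout classes). Lens is lowest in the 3 high-share libraries and epidermis in the 3 lower-share libraries, while skeletal muscle is lowest in knockout 4 and then knockout 2.

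Most nuclear genes for mitochondrial proteins were not called, which holds for all genes too, of which 4.32% were called. Their values leaned lower in the high-share libraries, the class that the rule chose for high mitochondrially encoded counts. This lean was not particular to mitochondrial proteins. Negative values were also found in 35 of 36 proteasome genes, 48 of 54 of DNA replication and cell division and 53 of 61 of splicing and nuclear RNA binding. For the nuclear subunits of complexes I to V, 78 of 87 genes tested had negative log2 fold changes, beside 48.4% of all genes. EdgeR called 0 of them, with 9 at an unadjusted p under 0.05 and 0 called by DESeq2. The medians were -0.41 for complex I, -0.15 for complexes II and III, -0.40 for complex IV and -0.34 for complex V, and each turned positive, 0.04 to 0.22, with the nuclear total as covariate. Complex I subunit ndufs4 was at 9.06, 7.58 and 11.6 CPM in the high-share libraries and 22.4, 12.1 and 15.4 CPM in the lower-share libraries, with 25.8 to 31.6 CPM in WT (-0.81 ± 0.32, adjusted p = 0.14). Its classes did not overlap and both lay under WT. ATP synthase subunit atp5fa1 was at 312, 274 and 363 CPM in the high-share libraries and 556, 371 and 436 CPM in the lower-share libraries, with 741 to 998 CPM in WT (-0.51 ± 0.26, adjusted p = 0.224). The smallest p-values in the other complexes belonged to cox6a1 (-0.80 ± 0.33), uqcrc2a (-0.52 ± 0.27) and atp5pd (-0.66 ± 0.30). Medians against WT for complex I were -0.98 in the high-share and -0.58 in the lower-share libraries, so in both classes the nuclear subunits were under WT while the mitochondrially encoded share was at or above it.

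Mitochondrial ribosomal proteins, which translate the mitochondrial messages, had 0 of 72 genes called in edgeR, 8 at an unadjusted p under 0.05 and 0 in DESeq2. Of the 72, 67 were negative, with a median of -0.39 (0.04 with the covariate). The smallest p-value in that list belonged to mrpl57 (-0.77 ± 0.28, adjusted p = 0.111). Import and quality control had 1 of 45 called, a share under the 4.32% of all genes. This was the small intermembrane chaperone timm8b, at 12.1, 11.1 and 14.9 CPM in the high-share libraries and 38.3, 24.7 and 25.9 CPM in the lower-share libraries, with 41.5 to 51.5 CPM in WT (-1.21 ± 0.28, adjusted p = 0.0373). It was lower in every high-share library than in any lower-share or WT library. The matrix chaperonin hspd1 had -0.59 ± 0.26 and the inner-membrane protease yme1l1b -0.68 ± 0.23, neither called. Among 32 genes for maintenance and expression of mitochondrial DNA, 1 was called, also a share under the 4.32% of all genes. It was ppargc1a, the coactivator known to drive mitochondrial gene programmes, at 6.07, 8.52 and 5.29 CPM in the high-share libraries and 1.46, 3.11 and 1.89 CPM in the lower-share libraries, with 2.56 to 7.01 CPM in WT. The log2 fold change was 1.64 ± 0.41 (adjusted p = 0.0463), the classes did not overlap, and the WT range covered parts of both. The DNA-packaging transcription factor tfam was at 35.2, 34.4 and 49.9 CPM in the high-share libraries and 53.8, 39.2 and 49.0 CPM in the lower-share libraries, with 47.2 to 57.0 CPM in WT (-0.24 ± 0.26, adjusted p = 0.559). The mitochondrial RNA polymerase polrmt had -0.58 ± 0.29 and the RNA-stabilising protein lrpprc -0.94 ± 0.36, neither called, with lrpprc at -3.40 ± 0.36 and -2.44 ± 0.34 against WT in the high-share and lower-share classes. For the tricarboxylic acid cycle the median was -0.31 with 0 of 21 called in edgeR, 1 at an unadjusted p under 0.05 and 0 in DESeq2 (0.02 with the covariate). The 31 glycolysis genes tested had a median of 0.40. Gapdh was not called (1.301 ± 0.38, adjusted p = 0.0692).

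Housekeeping machinery of the nucleus and cytosol had 0 to 3 calls a list, shares to be read beside the 4.32% of all genes. The proteasome, which degrades tagged proteins, had 35 of 36 subunits negative, with a median of -0.69 (-0.14 with the nuclear total as covariate). Of the 36, 2 were called in edgeR, 23 had an unadjusted p under 0.05 and 10 were called by DESeq2. Subunit psmd2 was at 15.6, 15.2 and 15.9 CPM in the high-share libraries and 50.8, 29.4 and 30.7 CPM in the lower-share libraries, with 76.7 to 115 CPM in WT (-1.24 ± 0.28, adjusted p = 0.0357), and psmc3 had -1.12 ± 0.26. The 3 high-share values of psmd2 were within 1 CPM of one another and under all other libraries. DNA replication and cell division had 2 of 54 genes called lower and 1 higher, with a median of -0.60 that became 0.04 with the covariate. The centromeric histone cenpa (-1.70 ± 0.32) and the cyclin ccnb3 (-1.85 ± 0.42) were the lower ones, and incenp, of the chromosomal passenger complex, was the higher one (1.33 ± 0.28). Of 61 splicing and nuclear RNA-binding genes 53 were negative, with a median of -0.47 (-0.12 with the covariate). Of the 61, 1 was called, the splice-site factor u2af2a (-1.28 ± 0.24). Heat shock and chaperone genes had 0 of 35 called in edgeR, 13 at an unadjusted p under 0.05 and 3 in DESeq2. Their median was -0.54 (-0.03 with the covariate). The cochaperone dnaja1 had -1.23 ± 0.36 (adjusted p = 0.0669) and hsp90aa1.2 0.96 ± 0.29. Cytosolic ribosomal proteins had 0 of 80 called in edgeR, 1 at an unadjusted p under 0.05 and 1 in DESeq2 and a median of -0.03, which was 0.05 with upper-quartile factors.

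Stress and immune lists had 0 to 2 calls each, shares to be read beside the 4.32% of all genes. The endoplasmic reticulum chaperone canx (-1.14 ± 0.25) and the stress sensor atf6 (-2.01 ± 0.45) were the 2 of 36 unfolded protein and integrated stress response genes called, both lower. Atf6 was at 1.73, 2.16 and 1.76 CPM in the high-share libraries and 11.2, 3.94 and 7.70 CPM in the lower-share libraries, with 20.8 to 41.9 CPM in WT. In the list of apoptosis and cell cycle arrest genes 1 of 31 was called, tnfrsf1a, a tumour necrosis factor receptor (1.29 ± 0.33), and the cyclin-dependent kinase inhibitor cdkn1a had -0.36 ± 0.38. In the list of hypoxia genes, with a share under that of all genes, 1 of 28 was called. This was ca9, a carbonic anhydrase induced by low oxygen in many cells, at 326, 562 and 363 CPM in the high-share libraries and 94.3, 178 and 80.6 CPM in the lower-share libraries, with 17.4 to 25.8 CPM in WT (1.84 ± 0.34, adjusted p = 0.0206). The 3 groups were apart, with WT lowest and the high-share libraries highest. The prolyl hydroxylase egln3 had 0.81 ± 0.40 and was not called, and the list median was 0.05 (-0.03 on log2(TPM + 1)). Oxidative stress genes had 0 of 33 called in edgeR, 7 at an unadjusted p under 0.05 and 1 in DESeq2, with the superoxide dismutase sod1 at -1.18 ± 0.34 (adjusted p = 0.0647). Inflammation and interferon genes had 2 of 21 called, of 42 listed. The granulocyte growth factor csf3b was at 16.5, 25.2 and 54.5 CPM in the high-share libraries and 5.18, 9.43 and 5.38 CPM in the lower-share libraries, with 0.0552 to 1.02 CPM in WT (2.28 ± 0.44, adjusted p = 0.0239), and the interferon-induced mxa had 1.41 ± 0.36. The neutrophil list had 1 of 14 called, s100a10b (1.45 ± 0.32). This gene had 120 to 170 CPM in WT, where the whole list summed to 187 to 268 CPM, and its source cells were not tested. The macrophage list had 0 of 13 called in edgeR, 1 at an unadjusted p under 0.05 and 1 in DESeq2. Among immediate early genes, nr4a2a, a nuclear receptor of dopamine neurons, was called lower (-1.77 ± 0.31) and the antiproliferative btg1 higher (1.48 ± 0.35). The list of aldehyde dehydrogenases had 0 of 17 called in edgeR, 1 at an unadjusted p under 0.05 and 0 in DESeq2.

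The genes highest in the high-share libraries by the size rule are given next, and some of them are known from neurons, while the list of neuronal markers had a median of -0.02 over 19 genes tested. The neuronal transcription factor onecut2 was at 235, 358 and 206 CPM in the high-share libraries and 37.3, 96.5 and 42.4 CPM in the lower-share libraries, with 8.72 to 12.5 CPM in WT (2.197 ± 0.38, adjusted p = 0.0206). Srrm4, which drives inclusion of neuronal microexons, was at 183, 307 and 184 CPM in the high-share libraries and 37.2, 80.5 and 30.9 CPM in the lower-share libraries, with 6.74 to 9.44 CPM in WT (2.195 ± 0.37, adjusted p = 0.0206). Both had WT lowest, the lower-share libraries between and the high-share libraries highest, and knockout 3 was the highest lower-share library for each. The neuronal chromatin remodeller chd5 (2.13 ± 0.41) and neurofilament light chain nefla (2.22 ± 0.40) were called higher as well. The neuronal marker list included the microtubule-associated protein map1ab, called higher (1.41 ± 0.33), while the pan-neuronal RNA-binding protein elavl3 had 0.45 ± 0.28 and was not called. Outside neurons, the smooth muscle actin nucleator lmod1b was at 7.90, 9.60 and 10.5 CPM in the high-share libraries and 1.79, 1.46 and 1.96 CPM in the lower-share libraries, with 0.108 to 0.512 CPM in WT (2.42 ± 0.36, adjusted p = 0.0145). The fin fold protein gene and2 went the other way relative to WT, at 7.42, 22.9 and 10.7 CPM in the high-share libraries and 2.19, 3.57 and 2.11 CPM in the lower-share libraries, with 19.3 to 162 CPM in WT (2.38 ± 0.44). Its high-share libraries were the nearer to WT. Further genes of that group were the lipase maturation factor lmf2a (2.29 ± 0.42), the BMP antagonist nbl1 (2.28 ± 0.37), the junction-associated ajap1 (2.22 ± 0.53) and btbd11a (2.13 ± 0.46).

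**Figure D4:**
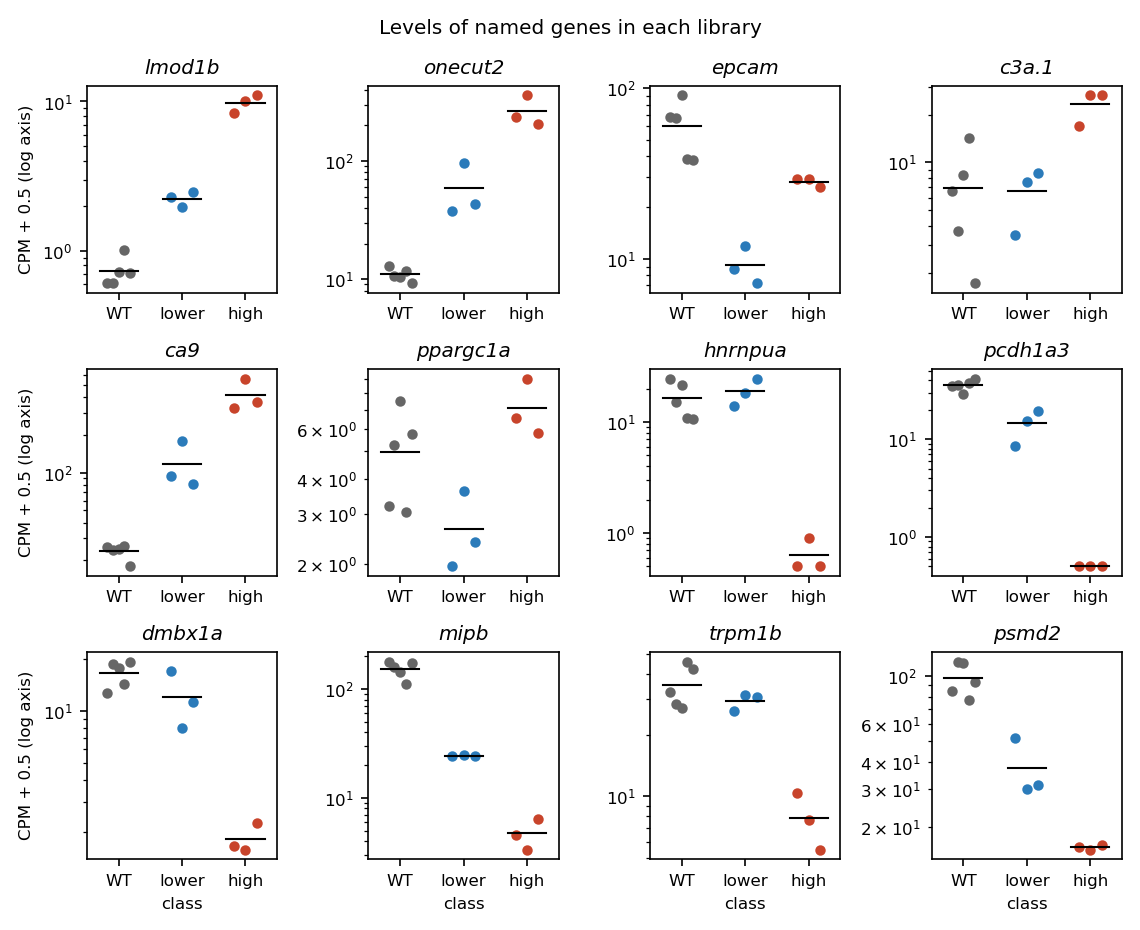
CPM + 0.5 on a log axis for 12 named genes in the WT, lower-share and high-share knockout libraries; each point is a library and each bar the class mean. Lmod1b, onecut2 and ca9 step up from WT to the lower-share to the high-share class, whereas pcdh1a3 and hnrnpua are at or near 0 in the high-share libraries.

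Set against WT, with 1 estimate of the spread over all 11 libraries, 14228 of 23498 nuclear genes (60.5%) were called in the high-share class, 27.8% higher and 32.7% lower than in WT, and 10579 (45.0%) in the lower-share class, 22.0% higher and 23.1% lower. The 2 comparisons share the WT libraries, and their values are given side by side. The median log2 fold change of all genes against WT was -0.19 in the high-share and -0.04 in the lower-share class, and -0.02 and 0.06 with upper-quartile factors, so changes against WT are to be read relative to these medians. For onecut2 the log2 fold changes against WT were 4.67 ± 0.30 and 2.49 ± 0.28 in the high-share and lower-share class, for ca9 4.17 ± 0.27 and 2.34 ± 0.25, and for lmod1b 5.27 ± 0.41 and 2.86 ± 0.42. Genes lower in the high-share class fell into different patterns against WT. For dmbx1a the values were -3.57 ± 0.34 and -0.47 ± 0.26, for cldn5b -1.79 ± 0.19 and -0.09 ± 0.17 and for trpm1b -2.23 ± 0.26 and -0.26 ± 0.24, with the second of each pair not called. For mipb both were called, at -5.14 ± 0.27 and -2.67 ± 0.23. In epidermal genes the lower-share class was the farther from WT, with -1.102 ± 0.29 and -2.78 ± 0.32 for epcam and -0.93 ± 0.23 and -2.52 ± 0.25 for agr1. The zinc finger gene zfx had 0 counts in WT and was at 5.88, 47.2 and 67.8 CPM in the high-share libraries and 35.5, 42.9 and 28.6 CPM in the lower-share libraries, so knockout 1 stood apart from the other 5. The condensin gene ncaph, at 14.2 to 60.3 CPM in WT, was at or near 0 in all 6 knockout libraries and was not tested between the classes.

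Nuclear totals and the share of unmatched identifiers differed in mean between the classes, as given above. With the 6 libraries thinned to the smallest nuclear total, 827 genes were called, and 745 of the 900 were called again in the same direction. This stands beside the 0 calls in edgeR and 89 in DESeq2 with the nuclear total as covariate. The part of unmatched identifiers was not tested.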

How the data were processed

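RNA of whole embryos was sequenced on the BGISEQ-500 platform, per the labels. Reads were trimmed with Trim Galore 0.6.4 and quantified with kallisto (version given as 0.4.6) for danRer11, per the submitters' processing notes. The authors deposited expected counts, estimated reads per gene that need not be whole, and TPM, scaled by them for length and depth, for 30243 Entrez gene identifiers. Of these, 25812 matched a symbol in a RefSeq table of another assembly, used for names only. Expected counts were rounded, and the 13 mitochondrially encoded protein genes were removed before scaling. Nuclear totals were 7.40 to 19.0 M, and libraries with smaller totals give the less precise levels of low genes. The high-share class had the smaller mean total, but knockout 3 of the lower-share class (10.10 M) was below knockout 6 (10.18 M).

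Genes passing filterByExpr were tested in R 4.3.3 with edgeR 4.0.16 (TMM factors, robust quasi-likelihood F test, two-sided, Benjamini-Hochberg over all genes tested) in the 6 knockout libraries. Comparisons with WT used all 11 libraries. Library measures had exact permutation tests. Alternatives used DESeq2 1.42.0, and limma 3.58.1 on voom values with library quality weights and on log2(TPM + 1) or log2(TPM + 0.1). Others changed the scaling or filter, or left out each library. The covariate fit in DESeq2 was added after edgeR with that covariate gave 0 calls. The workflow was tested on simulated data. Intervals and floors cover counting error only.

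The classes, 47 gene lists and tests were chosen with earlier results of these data known. Named genes are the 12 higher and 12 lower with the largest change among called genes with a mean of at least 5 CPM, classes that do not overlap and a plain symbol (343 and 270 genes passed), 3 genes of each list with the smallest p, and aldh3a1, ppargc1a, tfam, polrmt, lrpprc, hspd1, mdm2, cdkn1a, ca9, egln3, elavl3, crybb1l1, pmela, zfx and ncaph. Some genes that this rule names are not reported here. Plots used Python 3.11.15 and matplotlib 3.10.9.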

Additional observations from a re-analysis of the deposited data

Results flagged for a closer look

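Among 388 groups of values examined, 14 had 1 library standing far from the rest of its group by Dixon's ratio, where chance gives about 1 in 20. In the knockout libraries, knockout 6 had the highest share of nuclear genes with no count, 17.8%. Knockout 5 was the highest for the bicarbonate transporter slc4a4a at 65.3 CPM, and knockout 1 the lowest for zfx at 5.88 CPM. All 3 libraries belong to the high-share class.

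The other cases were WT libraries. WT 5 was the lowest for mt-nd1, with 4.37% of mitochondrial counts, for the hatching enzyme zgc:111983 at 4.38 CPM, for keap1b at 21.0 CPM and for ca9 at 17.4 CPM, and the highest for mycbp2 at 69.8 CPM. WT 4 was the lowest for crybb1l1 at 107 CPM and the highest for grna.1 at 1.71 CPM. WT 3 was the lowest for tulp1b at 0.496 CPM and for cela1.4 at 3.75 CPM, and WT 2 for hnf1ba at 5.31 CPM and for ela2l at 0 CPM. These libraries enter only the comparisons with WT.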

How the results depend on the processing

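The count of 900 nuclear genes called between the classes stayed within 1.5 times with other size factors, filters, thinning to the smallest library, mitochondrial genes kept in scaling and the share entered as a number. It was 2445 with the DESeq2 Wald test, 4591 with voom and a quality weight for each library, 161 on log2(TPM + 1) and 79 on log2(TPM + 0.1). The fit to all 11 libraries gave 2916 calls, and that with the length trend removed 1772. The nuclear total as covariate left 0 calls in edgeR and 89 in DESeq2, the latter chosen after seeing the data. Leaving out single libraries gave 21 to 2250 calls. The cause was not tested. Of the 900 genes, 158 were called again on log2(TPM + 1), and 18 to 873 when a library was left out. The median of 23 of the 47 lists kept its sign under all 22 alternatives and that of 24 did not.

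Counts against WT stayed within 1.5 times: 12439 to 14606 in the high-share and 8346 to 11181 in the lower-share class when single libraries were left out. On TPM, the class difference in unmatched identifiers was 5.49 points against 1.73 on counts, and in the 10 most abundant genes 3.997 against -0.04.

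Replicate numbers shared by WT and knockout were not used to pair the libraries in the reported fits. Deviations of same-numbered libraries correlated at 0.02 to 0.16, and 2 of 5 WT libraries correlated best with the knockout library of their own number. These weak positive values do not settle whether the numbers mark pairs. With the replicate block, 965 genes were called between the classes (32.6% higher), and 12760 and 10333 against WT. The similar total does not mean the same genes. Of the 900 genes of the reported comparison, 376 were called again in the same direction and 2 changed sign. The knockout library whose number no WT library shares stood alone in its block. The log2 fold change of ela2l was -0.073 with the block instead of 1.17. Depth limits genes of few counts, and the classes hold 3 libraries each.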

Other observations

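In 4 further tissue lists 1 or 2 markers were called, beside 4.32% of all genes. Ionocytes, the ion-transporting cells of the skin, had 1 of 11 markers called higher in the high-share libraries, the calcium pump gene atp2b1a at 349, 742 and 468 CPM in the high-share libraries and 207, 261 and 199.9 CPM in the lower-share libraries, with 67.0 to 94.4 CPM in WT (1.23 ± 0.30, adjusted p = 0.0409). All its high-share values were above its lower-share values, and both were above WT. The ionocyte list as a whole was not, with medians against WT of -0.76 in the high-share and -0.99 in the lower-share class. Against WT, 4 of its 11 markers were called higher and 4 lower in the high-share class, and 4 higher and 6 lower in the lower-share class. Erythroid markers had 1 of 23 called higher, the membrane skeleton gene epb41b (1.61 ± 0.28), while the heme enzyme fech (0.79 ± 0.32) and the globin regulator klf1 (0.66 ± 0.35) were not called. In the exocrine pancreas list, with 10 genes tested, the elastase gene ela2l was called higher (1.17 ± 0.27; -0.073 in the fit to all 11 libraries with the replicate block) and the transcription factor ptf1a, which also acts in retina and hindbrain, lower (-1.26 ± 0.30). The latter was at 12.9, 7.44 and 14.0 CPM in the high-share libraries and 30.3, 28.8 and 24.7 CPM in the lower-share libraries, with 13.1 to 21.2 CPM in WT. The hatching gland list had 1 of 9 called higher, zgc:111983 (2.43 ± 0.52).

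EdgeR called 0 of 12 intestinal markers, with 3 at an unadjusted p under 0.05 and 1 called by DESeq2, a median of 0.52 and the lipid-binding protein gene fabp2 at 1.64 ± 0.58. Kidney had 0 of 20 called in edgeR, 3 at an unadjusted p under 0.05 and 1 in DESeq2, with a median of 0.27. Xanthophores had 0 of 15 called in edgeR, 3 at an unadjusted p under 0.05 and 1 in DESeq2, and iridophores 0 of 13, 3 and 0, with medians of 0.16 and 0.04. Germ cell and maternal markers had 0 of 10 called in edgeR, 3 at an unadjusted p under 0.05 and 0 in DESeq2, and a median of 0.71 (-0.09 with the nuclear total as covariate). The linker histone h1m, stored in eggs, was at 7.23, 5.82 and 3.01 CPM in the high-share libraries and 1.73, 2.75 and 1.96 CPM in the lower-share libraries, with 0.165 to 0.849 CPM in WT (1.34 ± 0.44, adjusted p = 0.0923). Autophagy and lysosome genes had 0 of 41 called in edgeR, 6 at an unadjusted p under 0.05 and 1 in DESeq2, with the autophagy factor atg5 at -0.94 ± 0.27 (adjusted p = 0.0625). Values in parentheses are log2 fold changes ± SE, high-share against lower-share.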
